A study of Mus musculus with 10 samples.

Results

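The genes described here are 9 transcription factor genes that specify the eye field of the embryo or keep retinal progenitors dividing, namely Pax6, Rax, Six3, Six6, Lhx2, Sox2, Nr2e1, Hes1 and Hes5. They were chosen by name for these roles, with earlier results of these data known. All 9 were found, with 1 entry each, among the 20045 gene symbols of the deposited table. The series mapped 2 modifications of histone H3 by chromatin immunoprecipitation and sequencing (ChIP-Seq) in whole mouse retina before birth at E17.5 (an embryonic day, titled E17 in the labels) and after birth at PN1, PN7 and PN15 (postnatal days). Each mark was measured in 1 library per stage, from chromatin of at least 20 retinas, so 8 libraries enter the comparisons and none has a replicate. No p-value or replicate error can therefore be given, and a difference between stages is a difference between 2 libraries. The labels give the strain of every library as rd1/rd1, a Pde6b mutant line that loses its rods. The study's methods, however, name both C57BL/6j and rd1/rd1 mice, the latter as the control for rod subtraction. Its results set wild type retina against rd1/rd1 retina, and of the sample titles only that of the PN30 sample carries rd1. Another 2 samples, H3K4me2 in rd1/rd1 retina at PN30 and an anti-GFP control at PN56, were not analysed here.

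The eye field is the patch of anterior neural plate from which the optic vesicles grow, and the homeodomain factors Rax, Six3, Six6, Lhx2 and Pax6 form the network that sets it up. The same factors, with Sox2, Nr2e1 and the Notch effectors Hes1 and Hes5, then hold retinal progenitors in the cycling state until neurons and Müller glia are made. Most of these genes stay on in a minority of mature cells: Pax6 in amacrine and ganglion cells, Sox2, Lhx2, Rax and Hes1 in Müller glia, Six3 and Six6 in inner retinal neurons. Rods, which make up most of the mature mouse retina, do not use most of these factors. H3K4me2, dimethylation of lysine 4, lies around start sites of genes that are active or can be activated. H3K27me3, trimethylation of lysine 27, is written by Polycomb repressive complex 2 and lies over genes held silent. A promoter with both is called bivalent, although in whole tissue both marks on the same gene can also come from different cells.

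Each value below is a normalized occupancy, the number of uniquely mapped reads within 2.5 kb of a transcription start site (TSS), scaled by the authors to the mapped reads of the library and deposited as a rounded whole number. Depth per library was not recovered, but every whole number from 0 to at least 109 occurs in every library, so 1 unit stands for about 1 read or more. Intervals of 95% treat the values as read numbers (exact Poisson for a level, exact binomial for a ratio) and cover counting error only. The background was read from olfactory receptor genes, which are silent in retina, as the 95th percentile of their 1053 entries in the same library. That level was, from the youngest to the oldest stage, 4, 8, 1 and 7 for H3K4me2 and 21, 22, 22.4 and 29 for H3K27me3. The PN7 H3K4me2 library stood apart, with 19.5% of entries at 0 against 0.362% to 2.52% in the other 3 H3K4me2 libraries.

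The upstream sequences of the genes on which the comparison turns are shown first. Of the 9 genes, 7 matched the RefSeq promoter table, and each stretch had 1 exact match on its chromosome in mm9, the build the authors mapped to. The 250 bases before the first transcribed base are printed 5′ to 3′ for Pax6, Sox2 and Nr2e1, which were past 2-fold in both marks between E17.5 and PN15, and for Six3, Six6 and Hes5, where H3K27me3 stayed below the background level at every stage. Capitals mark 2 motifs on either strand, TGGGAA (the core letters bound by RBPJ, the DNA-binding factor of Notch signalling, read TTCCCA on the other strand) and CCAAT (the box bound by NF-Y, read ATTGG on the other strand), which do not overlap each other here.

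Pax6, chr2:105508803-105509052 (plus strand): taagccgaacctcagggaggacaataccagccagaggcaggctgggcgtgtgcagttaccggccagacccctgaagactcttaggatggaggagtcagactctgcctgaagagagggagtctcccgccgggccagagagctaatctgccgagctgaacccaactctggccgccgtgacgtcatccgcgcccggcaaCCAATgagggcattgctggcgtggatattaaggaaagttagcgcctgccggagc

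Sox2, chr3:34548667-34548916 (plus strand): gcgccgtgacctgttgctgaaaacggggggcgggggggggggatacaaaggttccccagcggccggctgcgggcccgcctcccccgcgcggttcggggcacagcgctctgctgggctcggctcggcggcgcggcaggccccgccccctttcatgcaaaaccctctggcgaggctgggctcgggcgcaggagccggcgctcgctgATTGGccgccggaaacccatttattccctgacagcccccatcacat

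Nr2e1, chr10:42303397-42303646 (minus strand): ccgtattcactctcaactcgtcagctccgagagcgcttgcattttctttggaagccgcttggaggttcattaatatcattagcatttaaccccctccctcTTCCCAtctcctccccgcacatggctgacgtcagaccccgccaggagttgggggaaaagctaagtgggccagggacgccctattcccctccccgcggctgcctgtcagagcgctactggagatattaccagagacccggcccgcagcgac

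Six3, chr17:86019924-86020173 (plus strand): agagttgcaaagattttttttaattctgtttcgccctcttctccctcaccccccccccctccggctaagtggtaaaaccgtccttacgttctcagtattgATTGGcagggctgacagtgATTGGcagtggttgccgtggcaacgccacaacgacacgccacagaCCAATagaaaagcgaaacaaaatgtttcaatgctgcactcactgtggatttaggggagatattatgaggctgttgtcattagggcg

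Six6, chr12:74040619-74040868 (plus strand): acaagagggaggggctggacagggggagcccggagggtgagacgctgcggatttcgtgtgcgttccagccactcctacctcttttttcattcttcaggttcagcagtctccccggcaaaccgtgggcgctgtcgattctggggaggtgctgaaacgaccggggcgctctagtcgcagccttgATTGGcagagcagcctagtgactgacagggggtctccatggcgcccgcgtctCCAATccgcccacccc

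Hes5, chr4:154334782-154335031 (plus strand): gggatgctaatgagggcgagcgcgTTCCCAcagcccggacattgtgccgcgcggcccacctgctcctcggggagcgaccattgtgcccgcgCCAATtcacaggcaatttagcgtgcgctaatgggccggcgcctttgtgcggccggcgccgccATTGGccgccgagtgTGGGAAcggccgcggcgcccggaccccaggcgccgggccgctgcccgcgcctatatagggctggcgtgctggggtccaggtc

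Hes5, a direct Notch target, held the TGGGAA letters at 2 places, starting at -226 and -82 relative to the first transcribed base, and Nr2e1 at 1 place, -150. The same letters occurred in 21.6% of all 32851 mouse promoters of this length. CCAAT letters were found 3 times upstream of Six3, 2 times each upstream of Six6 and Hes5, once each upstream of Sox2 and Pax6, and not upstream of Nr2e1, against 33.8% of all promoters with at least 1. The CCAAT motif was picked with these sequences in view. CpG dinucleotides, which are dense in promoters that Polycomb can bind, numbered 32 at Hes5, 27 at Sox2, 17 at Six6, 15 each at Pax6 and Nr2e1 and 10 at Six3, against a median of 6 over all promoters. Thus the genes with and without H3K27me3 above the background level overlapped in CpG number. The motifs CACNAG and TAATTA, the letters of sites for Hes repressors and for paired-type homeodomains, were also searched on both strands. CACNAG was found once at Six6 and once at the other RefSeq start of Pax6, against 36.7% of all promoters, and TAATTA at no promoter of these genes, against 4.84%. Lhx2 had the TGGGAA letters once at each of its RefSeq starts and 25 and 24 CpGs. The deposited table names no start position, and the annotated coding transcripts of Pax6, Nr2e1, Lhx2 and Six3 start at sites spread over 20559, 14804, 13251 and 7423 bases, so which start was measured is not known for these genes, and the stretches printed for Pax6, Nr2e1 and Six3 may lie outside the measured window.

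By the GENCODE annotation of mm9, Pax6 lies at chr2:105509053-105543317, Lhx2 at chr2:38194801-38225253, Six3 at chr17:86012948-86031153, Six6 at chr12:74040932-74045886, Sox2 at chr3:34548927-34551383, Hes1 at chr16:30064470-30067882 and Hes5 at chr4:154335032-154336480, all on the plus strand. Nr2e1 lies on the minus strand at chr10:42281769-42303438, and Rax on chromosome 18. Hes5 and Sox2 are shorter than or about as long as the part of the measured window downstream of the start.

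At E17.5 the 9 genes were alike in H3K4me2 and unlike in H3K27me3. H3K4me2 ran from 98 at Hes5 to 137 at Pax6 with a median of 105, against a median of 41 over all symbols, and the lowest of the 9 was at the 96.4 percentile of its library. H3K27me3 ran from 3 at Six3 and Six6 to 65 at Nr2e1 with a median of 13, against 11 over all symbols, so the 9 genes were spread from the 4.2 to the 89.3 percentile. Both marks stood above the olfactory receptor level at Sox2, Lhx2 and Nr2e1, which is 3 of the 9 genes against 22.1% of all symbols. The H3K27me3 values of Sox2 and Lhx2 were close to that level, and their counting intervals reached below it.

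**Figure D1:**
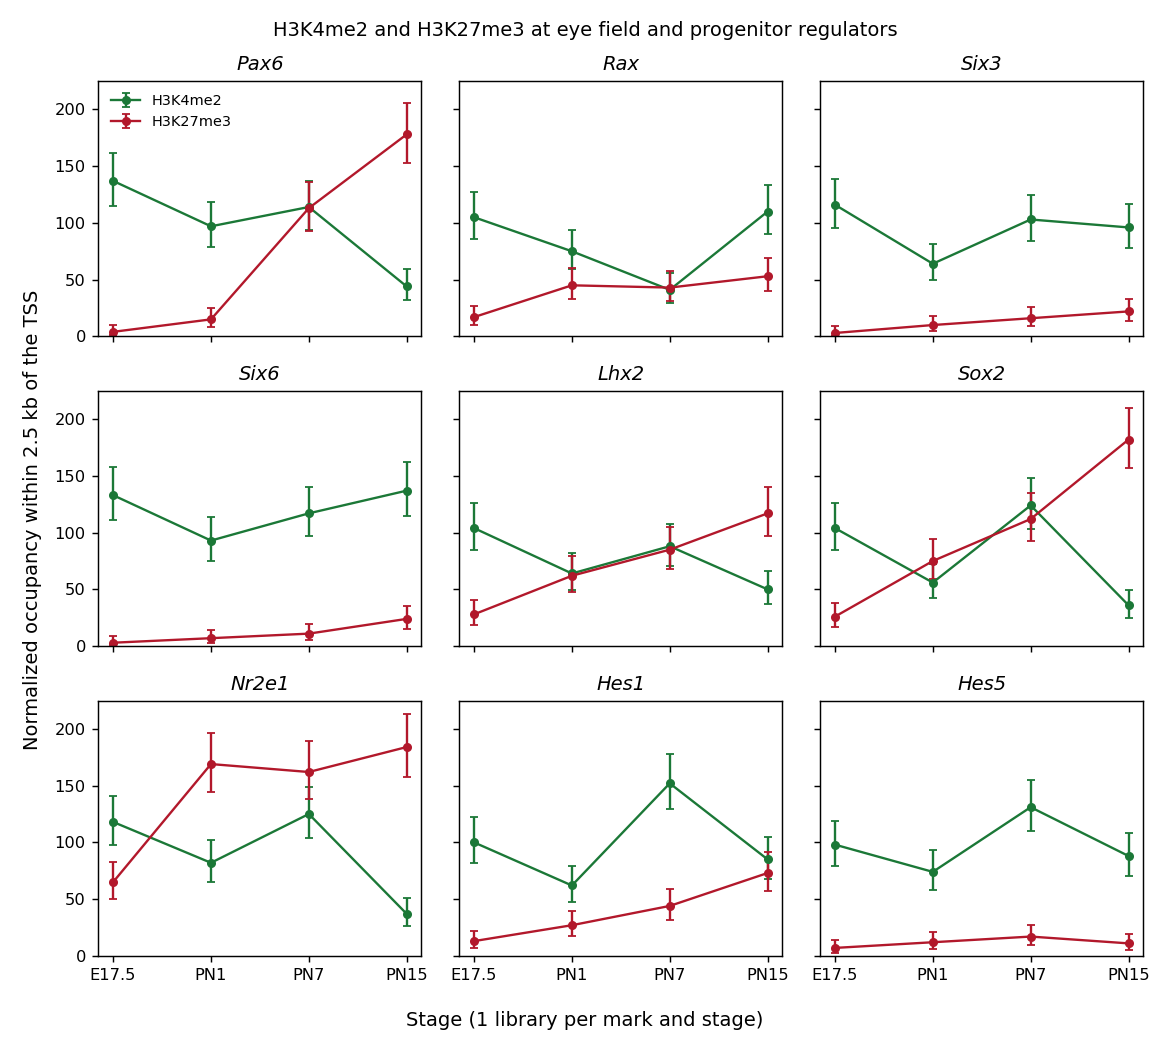
Normalized occupancy within 2.5 kb of the TSS (vertical axis) of H3K4me2 (green) and H3K27me3 (red) at each stage (horizontal axis) for the 9 genes. Points are single libraries and bars are 95% Poisson intervals for counting error. Pax6 H3K27me3 goes from 4 to 178 while its H3K4me2 goes from 137 to 44, and H3K27me3 at Six3, Six6 and Hes5 is at most 24. The marks come from different antibodies and libraries, so the heights of the 2 curves are not on a common scale.

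Pax6, the paired-type homeodomain factor required for eye formation in vertebrates, showed the largest difference. H3K27me3 at Pax6 was 4 at E17.5 and 15 at PN1, then 113 at PN7 and 178 at PN15. H3K4me2 was 137, 97, 114 and 44 in the same order, which is used for every gene below. Its H3K27me3 was thus 44.5-fold higher at PN15 than at E17.5 (95% interval 17.1 to 165), and of 20045 symbols 2 had a larger log2 change. The values at E17.5 and PN1 lay below the olfactory receptor level and those at PN7 and PN15 above it. The ratios taken from E17.5 or PN1 therefore rest on bases below that level. The largest step fell between PN1 and PN7, where H3K27me3 was 7.53-fold higher (4.38 to 13.9) while H3K4me2 was within its counting error, 1.18-fold (0.889 to 1.56). Between PN7 and PN15 H3K4me2 was 2.59-fold lower (1.81 to 3.76).

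Lhx2, a LIM-homeodomain factor needed for the optic vesicle to form and later for Müller glia, had an H3K27me3 value close to the background level at E17.5. H3K27me3 at Lhx2 was 28, 62, 85 and 117, and its H3K4me2 was 104, 64, 88 and 50. H3K27me3 was higher at each stage than at the one before and 4.18-fold higher at PN15 than at E17.5 (2.75 to 6.56), and H3K4me2 was 2.08-fold lower (1.47 to 2.98).

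Six3 and Six6, sine oculis homeobox factors of the early eye, of which Six3 represses Wnt genes and Six6 cell cycle inhibitors, kept high H3K4me2. Six3 had H3K4me2 of 116, 64, 103 and 96 and H3K27me3 of 3, 10, 16 and 22 across the stages. Six6 had H3K4me2 of 133, 93, 117 and 137 and H3K27me3 of 3, 7, 11 and 24. Their H3K27me3 was higher at each stage than at the one before, 7.33-fold (2.2 to 38.3) and 8.0-fold (2.43 to 41.5) from E17.5 to PN15, yet all 8 values lay below the olfactory receptor level of their library. The folds of these genes therefore describe differences below that level, not a gain of H3K27me3 past it. At PN15 both values were above the olfactory receptor median of 10. In H3K27me3 both genes ranked at the 4.2 percentile at E17.5, and Six3 at the 74.6 and Six6 at the 76.8 percentile at PN15. Six6 at PN15 was at the 97.3 percentile of H3K4me2, the highest of the 9 genes.

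Rax, the retina and anterior neural fold homeobox factor that stands first in the eye field network, differed from the others at PN7. H3K4me2 at Rax was 105, 75, 41 and 110, so that it was 1.83-fold lower at PN7 than at PN1 (1.23 to 2.75), where the other 8 genes had higher values, and 2.68-fold higher at PN15 than at PN7 (1.86 to 3.94). Among all symbols these 2 changes of Rax ranked at the 39.2 and 68.1 percentiles, with log2 values -0.36 and 0.40 from the median of all symbols. The other 8 genes ranked between the 77.9 and 98.5 percentiles from PN1 to PN7, further from the median than Rax. The low value lies in the PN7 H3K4me2 library, and the part of that library in the pattern of Rax was not tested. H3K27me3 at Rax was 17, 45, 43 and 53, which was 3.12-fold higher at PN15 than at E17.5 (1.78 to 5.74) from a base below the olfactory receptor level, with most of the difference already present at PN1.

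Sox2, the SRY-box factor that maintains neural progenitor competence, carried H3K27me3 of 26, 75, 112 and 182 next to H3K4me2 of 104, 56, 124 and 36. H3K27me3 was 7.0-fold higher at PN15 than at E17.5 (4.63 to 11) and H3K4me2 was 2.89-fold lower (1.96 to 4.35). H3K4me2 at Sox2 was 1.86-fold lower at PN1 than at E17.5 (1.33 to 2.62), and 3.44-fold lower at PN15 than at PN7 (2.36 to 5.14), where 30 of 20045 symbols had a more negative log2 change. The second of these rests on the PN7 library that stood apart, and from PN1 to PN15 Sox2 was 1.56-fold lower (1.01 to 2.43). Nr2e1, the orphan nuclear receptor also called Tlx that keeps neural stem cells undifferentiated, carried 65, 169, 162 and 184 units of H3K27me3 next to 118, 82, 125 and 37 of H3K4me2. It already carried the most H3K27me3 of the 9 genes at E17.5, was 2.6-fold higher at PN1 (1.94 to 3.52) and then differed by less than its counting error between neighbouring stages. Its H3K4me2 was 3.38-fold lower at PN15 than at PN7 (2.32 to 5.02), with 35 symbols more negative, and 2.22-fold lower than at PN1 (1.49 to 3.36).

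Hes1 and Hes5 are basic helix-loop-helix repressors through which Notch blocks neuronal differentiation, and they differed from each other in H3K27me3. Hes1 showed 13, 27, 44 and 73 units of H3K27me3 and 100, 62, 152 and 85 of H3K4me2, so that H3K27me3 was 5.62-fold higher at PN15 than at E17.5 (3.09 to 11), from a base below the olfactory receptor level. Hes5 showed 7, 12, 17 and 11 units of H3K27me3 and 98, 74, 131 and 88 of H3K4me2. Its H3K27me3 ratio of 1.57 (0.556 to 4.78) was within counting error, and Hes5 was the only gene of the 9 under 2-fold. The counting intervals of Hes1 and Hes5 did not overlap at PN7 or PN15. H3K4me2 was within counting error between E17.5 and PN15 at both, 1.18-fold lower at Hes1 (0.872 to 1.59) and 1.11-fold lower at Hes5 (0.827 to 1.5).

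**Figure D2:**
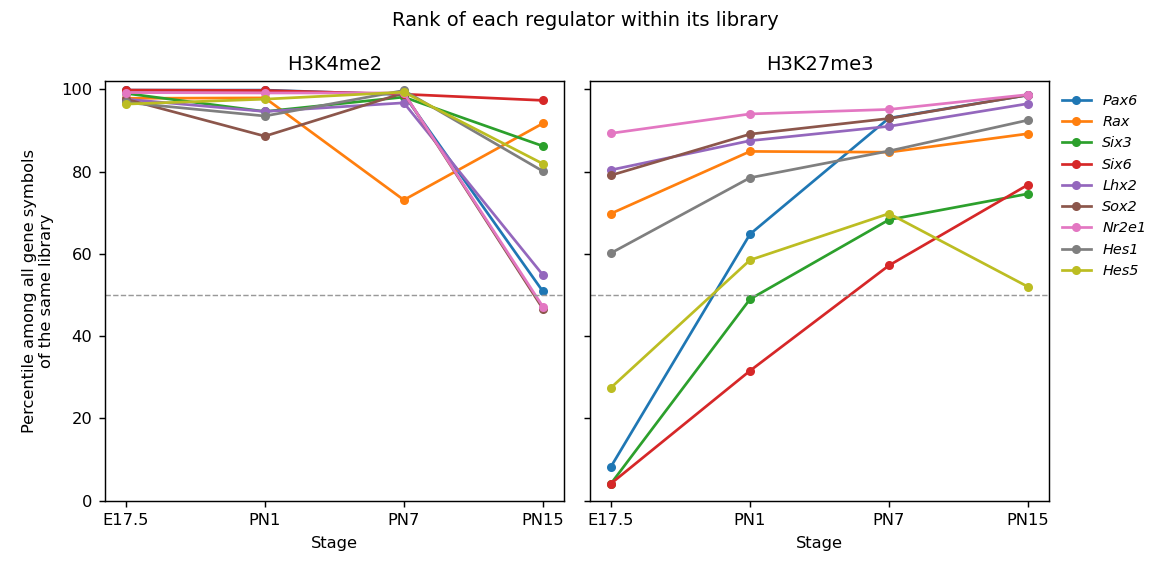
Percentile of each gene among the 20045 symbols of the same library (vertical axis) at each stage (horizontal axis), for H3K4me2 (left) and H3K27me3 (right), 1 library per point. In H3K4me2 all 9 genes are at or above the 96.4 percentile at E17.5, and Pax6, Lhx2, Sox2 and Nr2e1 lie between the 46.7 and 54.9 percentiles at PN15. The other genes lie between the 80.1 and 97.3 percentiles at PN15.

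Counted over the 9 genes, H3K27me3 at PN15 was at least 2-fold above E17.5, on the log2(value + 1) scale, at 8, the exception being Hes5, against 12.2% of all symbols, and it was 2-fold lower at none, against 16.1%. Of these 8, Six3 and Six6 were below the olfactory receptor level at PN15 as well as at E17.5, and Pax6, Rax and Hes1 started below it. With libraries set to equal 99th percentiles Hes5 also passed, with a log2 change of 1.67, and 51.0% of all symbols were 2-fold higher. The median log2 change was 2.40 over the 9 genes and 0.00 over all symbols. The median log2 change was 1.35 from E17.5 to PN1, 0.57 from PN1 to PN7 and 0.46 from PN7 to PN15. Between E17.5 and PN1 the same 8 genes were past 2-fold (5.77% of all symbols) and none was lower (8.27%), although the steps of Six3, from 3 to 10, and Six6, from 3 to 7, were within counting error and Hes1 was at the limit. This count was 5 with a pseudocount of 5 (1.11% of all symbols) or with libraries set to equal 99th percentiles (1.91%). From PN1 to PN7 only Pax6 was (6.99%, with 13.5% lower), and from PN7 to PN15 only Six6 was (15%, with 9.7% lower). These later counts depended on the scaling. With equal 99th percentiles they were 4 (14.3% of all symbols) and 8 (48.8%), and with equal medians 1 (7.97%) and 0 (11.6%). Without the PN7 libraries, from PN1 to PN15, the genes past 2-fold were Pax6, Sox2, Six3, Six6 and Hes1, 5 of 9 against 13.2%. H3K27me3 was higher at each stage than at the one before at 6 genes, Pax6, Sox2, Six3, Six6, Lhx2 and Hes1, against 4.01% of all symbols. All steps of Six3, those of Six6 up to PN7, and the PN1 to PN7 steps of Lhx2 and Hes1 were within counting error. The count was 8 with equal medians and 9 with equal 99th percentiles, for which no share of all symbols is given here. The rank of the genes, which no scaling of a library can alter, also rose: the median percentile of H3K27me3 was 60.2, 78.5, 85 and 92.5 at the 4 stages. At the upper end of the libraries the trend was the opposite after PN1. The 99th percentile of H3K27me3 over all symbols was 464, 575, 414 and 207 at the 4 stages, so it was higher at PN1 than at E17.5 and lower at each later stage.

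H3K4me2 divided the 9 genes at PN15. It was at least 2-fold lower at PN15 than at E17.5 at 4 of them, Pax6, Sox2, Lhx2 and Nr2e1, against 11.7% of all symbols, and 2-fold higher at none, against 7.84%. At Rax, Six3, Six6, Hes1 and Hes5 the ratio lay between 1.21-fold lower, for Six3, and 1.05-fold higher, for Rax, with every interval spanning equality. With libraries set to equal 99th percentiles these 5 genes had log2 changes from -0.71 (Six3) to -0.37 (Rax). Where it arose depended on the PN7 library. Pax6, Sox2 and Nr2e1 were at least 2-fold lower at PN15 than at PN7, against 2.06% of all symbols, and Rax was 2-fold higher, against 52.3%, since the median log2 change of all symbols in that step was 1.0. With libraries set to equal medians 6 of the 9 were lower in that step and none higher, against 9.27% and 23.7% of all symbols. Between E17.5 and PN1 none of the 9 was past 2-fold in either direction (8.23% of all symbols higher and 6.78% lower), and between PN1 and PN7 Sox2 and Hes1 were 2-fold higher (4.09%) and none 2-fold lower (36.8%). With equal 99th percentiles 0 were higher (0.499%) and 1 was lower (51.7%) between PN1 and PN7. Without the PN7 library, from PN1 to PN15, Pax6 and Nr2e1 were 2-fold lower, against 12.4% of all symbols, and for Sox2 and Lhx2 the step from E17.5 to PN1, 1.86-fold and 1.62-fold lower, was larger than that from PN1 to PN15, 1.56-fold and 1.28-fold lower. Relative to the median of all symbols the order was the opposite, with log2 changes of -0.47 and -0.28 up to PN1 and of -1.13 and -0.85 from PN1 to PN15.

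**Figure D3:**
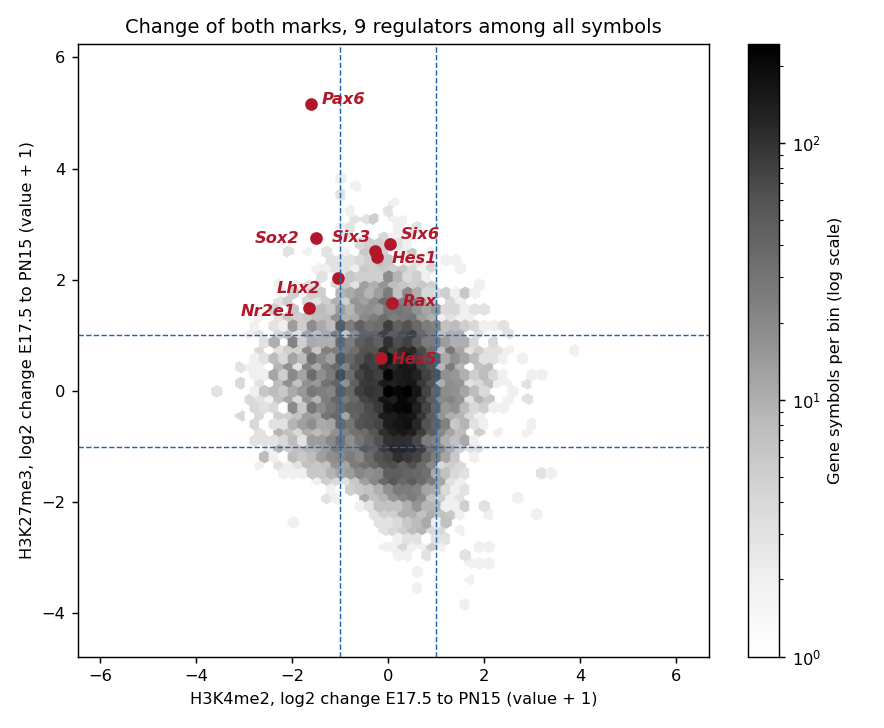
Log2 change from E17.5 to PN15 of H3K4me2 (horizontal axis) and H3K27me3 (vertical axis), both on log2(value + 1), for all 20045 symbols (grey bins, shaded by number on a log scale) and the 9 genes (red). Dashed lines mark 2-fold. Pax6, Sox2, Lhx2 and Nr2e1 lie in the upper left field with H3K27me3 at least 2-fold higher and H3K4me2 at least 2-fold lower.

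The joint difference, H3K27me3 at least 2-fold higher and H3K4me2 at least 2-fold lower at PN15, was found at Pax6, Sox2, Lhx2 and Nr2e1, that is at 4 of 9 genes, against 2.06% of all symbols. As the 9 genes began with high H3K4me2, the same share was taken over the 735 symbols with an E17.5 H3K4me2 of at least 98, the lowest value among the 9. Of those, 21.6% had the H3K27me3 difference, 5.44% the H3K4me2 difference and 3.67% both. Across the 9 genes the changes of the 2 marks had a Spearman correlation of -0.25 and a Pearson correlation of -0.43, and across all symbols of -0.11 and -0.12. These are descriptions over genes measured in the same 4 libraries.

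Both marks stood above the olfactory receptor level at 3 of the 9 genes at E17.5, at 5 at PN1 and at 6 at each later stage. The shares over all symbols at the last 3 of these stages were 20.9%, 21.0% and 15.2%. At PN7 and PN15 the 6 genes were Pax6, Sox2, Rax, Lhx2, Hes1 and Nr2e1, and Six3, Six6 and Hes5 were left out at every stage for their H3K27me3. In whole retina, fewer cells that carry a mark and less of the mark per cell cannot be told apart.

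The labelled tissue was checked by marker genes at the same stages. H3K4me2 summed over 10 rod genes was 163, 173, 229 and 922 by stage, and all 10 were at least 2-fold higher at PN15 than at E17.5. Over 8 Müller glia genes the sum was 493, 358, 320 and 351, and over 9 amacrine and ganglion cell genes 470, 348, 428 and 329, with all or all but 1 of each list above the olfactory receptor level at every stage. Bipolar cell genes, 6 in number, summed to 147, 109, 121 and 239. In H3K27me3 the Müller glia list summed to 130, 128, 146 and 283, with 3 of 8 genes at least 2-fold higher at PN15 than at E17.5, 1 lower and 2 with the joint difference, of which Rlbp1, a retinoid-binding protein gene named here for its size after its values were seen, went from 8 to 136 in H3K27me3 and from 37 to 6 in H3K4me2. The H3K27me3 sums were 2464, 3299, 2517 and 1378 for the amacrine and ganglion list, with none of 9 higher and 2 lower, 1437, 1583, 1075 and 514 for the bipolar list, with 1 of 6 higher and 4 lower, and 159, 170, 140 and 110 for the rod list, with 1 of 10 higher and 3 lower. With equal 99th percentiles, where 51.0% of all symbols were higher in H3K27me3, none of these lists had a gene 2-fold lower. The genes then higher were 5 of Müller glia, 1 of amacrine and ganglion cells, 1 of bipolar cells and 5 of rods. The joint difference was then at 4 Müller glia genes and at 1 of the amacrine and ganglion list. Pigment epithelium (6 genes), blood (4), vessel (5) and lens (5) lists summed in H3K4me2 to 58, 41, 179 and 57 at E17.5 and 52, 26, 92 and 28 at PN15. Of these, 3, 1, 3 and 4 genes were above the olfactory receptor level at E17.5 and 3, 1, 2 and 1 at PN15, and at PN7 3 pigment epithelium, 3 blood and 2 lens genes were at 0. Their H3K27me3 sums were 241, 97, 220 and 88 at E17.5 and 179, 110, 167 and 105 at PN15, and the genes past 2-fold in H3K27me3 were 2 higher and 1 lower of the pigment epithelium list, with the joint difference at 1, and none of the other 3 lists. With equal 99th percentiles 4 pigment epithelium, 2 blood, 3 vessel and 4 lens genes were 2-fold higher in H3K27me3 and none was lower. The joint difference was then at 1, 0, 2 and 1 of them. The part of these marker differences in the results above was not tested. As reference, Actb, Gapdh and Uba1, active in all cells, had H3K27me3 between 2 and 8 at every stage, and of 10 such genes none was 2-fold higher in H3K27me3 (3 with equal 99th percentiles) or 2-fold different in H3K4me2 at PN15 against E17.5, and 1 was lower in H3K27me3, Ywhaz, with 10 and 3.

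Other genes of the same network were counted in the same way. Of 25 eye field and progenitor partners, 11 were at least 2-fold higher and 2 were 2-fold lower in H3K27me3 at PN15 than at E17.5, and 11 were 2-fold lower in H3K4me2 and none higher, with the joint difference at 6. The median log2 changes were 0.83 for H3K27me3 and -0.51 for H3K4me2. With equal 99th percentiles 17 were higher and 1 lower in H3K27me3. Nr2f1, an orphan nuclear receptor that patterns the optic vesicle, had H3K27me3 of 4, 6, 15 and 76, and Sox11, a factor of newborn neurons, 5, 3, 23 and 56, the largest increases of the list. Otx2, which drives photoreceptor and bipolar fate, went the other way, with 212, 289, 130 and 46 units of H3K27me3 against 73, 58, 33 and 140 of H3K4me2, and so in H3K27me3 did Sox1, with 514 at E17.5 and 184 at PN15. The largest H3K4me2 decreases were at Foxn4, which gives progenitors amacrine and horizontal competence, with 118, 45, 41 and 27, and at Pax2, the optic stalk factor, with 49, 26, 27 and 11. Meis1, with H3K4me2 of 117 at E17.5 and 232 at PN15, and Otx2 were the largest increases, both under 2-fold on the log2(value + 1) scale.

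Of 21 Notch pathway genes other than Hes1 and Hes5, 5 were 2-fold higher and 6 were 2-fold lower in H3K27me3, 1 was higher and 5 lower in H3K4me2, and 1 had the joint difference. The median log2 changes were -0.21 and -0.03, and with equal 99th percentiles 10 were higher and 0 lower in H3K27me3, with a median of 0.91. Lfng, a glycosyltransferase that modifies Notch, had H3K27me3 of 34, 84, 96 and 130, and the ligand gene Dll1 had 11, 22, 27 and 35. Hes7 and Hes3, relatives of Hes1 and Hes5, were lower, Hes7 with H3K27me3 of 29 at E17.5 and 7 at PN15 and Hes3 with 271 and 83. In H3K4me2 the ligand gene Dll3 went from 80 to 15 and the Notch target Heyl from 57 to 17, while the ligand gene Jag1 went from 107 to 182. The largest log2 increase was at Numb, with values of 2 and 6 inside the olfactory receptor range.

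The 24 family relatives of the 9 genes, most of which act in other tissues, differed from them already at E17.5. Their median H3K27me3 was 438, 611, 474 and 222 across the stages, against 13, 27, 44 and 73 at the 9 genes. At PN15, 12 of the 24 were at least 2-fold lower in H3K27me3 than at E17.5 and 1 was higher, 16 were 2-fold lower in H3K4me2 and 1 was higher, and none had the joint difference. With libraries set to equal 99th percentiles, however, 0 of the 24 were lower in H3K27me3 and 5 were higher, and their median log2 change went from -1.05 to 0.11, while all 9 of the regulators were higher. Pax1, a skeletal patterning factor, had H3K27me3 of 739 at E17.5 and 270 at PN15, and Sox1, which is also in the list of partners, was the other largest decrease. Six5 was the gene past 2-fold upward, with 15 and 65, followed by Sox3, with 58 and 108. In H3K4me2 the B-cell factor Pax5 went from 27 to 2 and Pax9 from 67 to 8, whereas Nr2e3, a rod factor of the same receptor subfamily as Nr2e1, went from 11 to 107 and Six4 from 62 to 77. The lists share Pax2, Sox1 and Sox3, and Nr2e3 is also in the rod list.

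**Figure D4:**
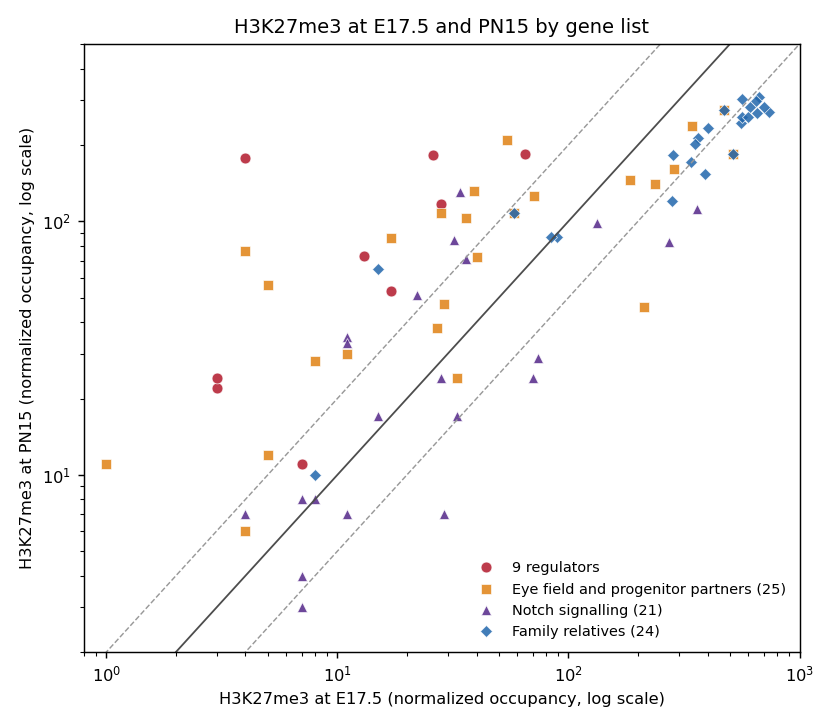
H3K27me3 at E17.5 (horizontal axis) and at PN15 (vertical axis), in normalized occupancy on log scales, for the 9 genes and 3 lists of related genes, 1 point per gene. The solid line marks equal values and dashed lines a ratio of 2. Of the 9 genes, 8 lie above the upper dashed line, among them Six3 and Six6, which stay below the olfactory receptor level. Most family relatives lie at the right near or below the lower dashed line.

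Among the genes whose 8 values lay nearest to the median profile of the 9, by Euclidean distance on log2(value + 1), were Cd24a, Maf, Fgf15, Zfp423, Spsb4, Pfkfb3, Tle1, Slit2 and Mn1, at distances from 0.74 to 1.04. The choice rests on the measure of likeness, since with a Pearson correlation 1 of the 10 nearest symbols, Fgf15, was the same. Fgf15, a growth factor gene of embryonic retinal progenitors that is also among the partners, showed 17, 25, 54 and 86 units of H3K27me3 and 104, 99, 146 and 92 of H3K4me2. Tle1, a Groucho-type corepressor, had 14, 16, 37 and 98 and 109, 58, 99 and 95. Hes1 itself supplies the median H3K27me3 value at every stage (13, 27, 44 and 73), so nearness to this profile is largely nearness to Hes1. Within the 9, the closest pairs were Six3 with Six6, at 1.04, and Sox2 with Lhx2, at 1.06. Outside the 9, 2 symbols were nearer to Six3 and 3 to Six6 than the other of that pair, and 0 were nearer to Sox2 and 6 to Lhx2. Pax6 had no near neighbour among the 9, its closest being Hes1 at 2.82 with 40 other symbols nearer.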

How the data were processed

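Chromatin was cut with micrococcal nuclease, and reads were mapped with Bowtie 0.12.4 to mm9. Reads with several positions were removed, read centres were set for fragments of 190 bp, and reads within 2.5 kb of each RefSeq TSS were normalized to the library's mapped reads. The deposited values are therefore a score, a normalized read number that the authors rounded to whole numbers for 25152 entries. Depth per library is not known from the table, so precision is given only as an upper bound on counting error.

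From this score the largest entry of each of 20045 symbols was kept (each of the 9 genes has 1), and changes were computed on log2(value + 1) with Python 3.11.15, numpy 2.4.6, pandas 2.3.3 and scipy 1.17.1. A change was counted from 2-fold. With 1 library per mark and stage no test was run. The counting of changes was run on simulated read numbers drawn around the E17.5 H3K4me2 values, with counting error as the only spread. That run does not cover differences between libraries, their scaling or the low values of H3K27me3. Of the entries, 25 are symbols turned into dates by spreadsheet software, and 2 of 10 samples had no column. The labels and the study's methods exchange the catalogue numbers of the antibodies, while Actb, Gapdh and Uba1 had values of 23 to 143 in the columns titled H3K4me2 and of 2 to 8 in those titled H3K27me3. The PN7 H3K27me3 column carries the letter b, whose meaning is not given in the sources used here.

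Named were the 9 genes, the 10 symbols nearest to their median profile, the 2 largest rises and 2 largest falls per list and mark, and reference genes, of which 2 are not reported here. The genes and lists were chosen with earlier results of these data known. Alternatives were a pseudocount of 5, rescaling to equal medians or equal 99th percentiles, the mean over entries, a minimum of 10 for the larger value, limits of 1.5-fold and 3-fold, other olfactory receptor limits and a correlation in place of the distance. Leaving out the PN7 library and the alternatives of the joint count, of the stage-by-stage count and of the lists were added after seeing the data. Promoter sequences came from RefSeq.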

Additional observations from a re-analysis of the deposited data

How the results depend on the processing

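Of the summary values recomputed under other settings, 96 stayed within 1.5 times the reported count and 29 moved further. The 96 include the counts with the mean over entries, which could not differ for genes with 1 entry each. They also include many counts of 0 that stayed at 0, so the 2 numbers do not measure robustness. The number of genes with higher H3K27me3 at PN15 than at E17.5, 8, ran from 7 to 9, while the share of all symbols ran from 4.0% with 3-fold and 5.45% with a pseudocount of 5 to 23.6% with 1.5-fold and 51.0% with equal 99th percentiles. The joint difference was found at 4 genes under both rescalings and at 3 with a pseudocount of 5. With a limit of 3-fold, lower H3K4me2 at PN15 than at E17.5 was found at 2 genes and the joint difference at 1. In single steps H3K4me2 was lower at PN1 at 4 genes with 1.5-fold, and from PN1 to PN7 it was higher at 0 with equal 99th percentiles or 3-fold and at 5 with 1.5-fold, and lower at 1 with equal 99th percentiles or 1.5-fold. From PN7 to PN15 it was higher at 0 with equal medians, 3-fold or without the PN7 library, and lower at 6 with equal medians and 5 with equal 99th percentiles or 1.5-fold. H3K27me3 was higher at PN1 than at E17.5 at 5 with a pseudocount of 5 or equal 99th percentiles and at 1 with 3-fold, and from PN1 to PN7 at 4 with equal 99th percentiles or 1.5-fold. From PN7 to PN15 it was higher at 0 with a pseudocount of 5, equal medians or 3-fold, at 8 with equal 99th percentiles, at 4 with 1.5-fold and at 5 without the PN7 library, and lower at 1 with 1.5-fold. Both marks at E17.5 were found at 1 gene with the 99th percentile of olfactory receptors or 2 times the 95th. With a Pearson correlation 1 of the 10 nearest symbols was shared. Under equal 99th percentiles the H3K4me2 shares of all symbols were 0.499% higher and 51.7% lower from PN1 to PN7 and 3.91% lower from PN7 to PN15, and under equal medians 9.27% were lower from PN7 to PN15. Apart from the limits, the cause of these differences was not tested.

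Equal 99th percentiles shifted the median H3K27me3 log2 change of all symbols from E17.5 to PN15 to 1.03 and the median H3K4me2 change to -0.28, at which the H3K4me2 changes were -0.37 at Rax, -0.40 at Six6, -0.71 at Six3, -0.67 at Hes1 and -0.59 at Hes5. Under equal medians these 2 medians were 0.11 and 0.10. The mean over entries alters none of the 9 genes, which have 1 entry each. Leaving out a replicate was not possible. No paired analysis was possible because each mark and stage has 1 library. Counting error limits the genes with small values most, Six3, Six6 and Hes5 in H3K27me3.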

Other observations

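Among the 735 symbols with E17.5 H3K4me2 of at least 98, another 23 had H3K27me3 at least 2-fold higher and H3K4me2 at least 2-fold lower at PN15 than at E17.5. The 6 described below were chosen after their values were seen, and no test was run. Igf2bp1, an mRNA-binding protein of fetal tissue, showed 101, 58, 91 and 6 units of H3K4me2 and 16, 32, 146 and 236 of H3K27me3 from the youngest stage to the oldest, and its relative Igf2bp3 had 104, 54, 104 and 46 and 6, 4, 35 and 97. Hmga2, a chromatin protein of embryonic cells, had 105, 49, 135 and 38 and 40, 82, 158 and 104. Sox9, a progenitor and Müller glia factor, had 118, 88, 126 and 48 and 39, 77, 110 and 132. The T-box genes Tbx2 and Tbx3, which pattern the optic cup, had H3K27me3 of 19 and 54 at E17.5 and 164 and 209 at PN15, with H3K4me2 of 105 and 107 at E17.5 and 34 and 36 at PN15. In H3K27me3 Igf2bp1, Igf2bp3, Sox9, Tbx2 and Tbx3 were highest at PN15, whereas Hmga2 was highest at PN7.

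Of the genes outside the 9, Tbx3 was nearest to Nr2e1 over the 8 libraries, at a distance of 0.77, Gli2 to Lhx2, at 0.57, and Id4 to Six3, at 0.78.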
